A study of Mus musculus with 22 samples.

Results

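The genes of the autotaxin and lysophosphatidic acid (LPA) system were followed through RNA-seq of the adult mouse choroid plexus (ChP), the epithelial tissue in the brain ventricles that secretes the cerebrospinal fluid (CSF). The 9 genes were taken by name: Enpp2, which encodes autotaxin, the LPA receptor genes Lpar1, Lpar2, Lpar3, Lpar4 and Lpar6, and the lipid phosphate phosphatase genes Plpp1, Plpp2 and Plpp3. All 9 were among the 33984 genes that could be matched in the count files. The study asked how the ChP depends on OTX2, a homeodomain transcription factor, and compared 14 pools of tissue, 2 pools (A and B) in each of 7 groups. In the conditional model, Otx2 lox/lox mice (strain label S129), 3 months old, received intracerebroventricular Cre-Tat, a cell-permeable recombinase, or vehicle, and the ChP of the lateral ventricle (LV) and of the fourth ventricle (4V) were dissected separately 15 days later. Each Cre-Tat pool held tissue of 5 mice and each vehicle pool tissue of 4 mice, so all 4 of these groups carried the lox alleles and the injection. In the constitutive run (strain label B6D2, 4V only) the groups were wild type (WT), Otx2 (+/-), which the methods call Otx2+/GFP, and Otx2 (+/AA), an allele on which the labels give nothing more. Per the methods, the constitutive tissue was pooled from 4 Otx2+/GFP mice and 5 wild-type littermates, also 3 months old, in duplicate. Whether these are numbers per pool is not given, and no number is given for Otx2 (+/AA).

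Autotaxin is a secreted lysophospholipase D. It releases LPA from lysophosphatidylcholine in extracellular fluid, and the ChP epithelium is one of its best known sites of expression, from which it reaches the CSF. LPA acts through G protein-coupled receptors of 2 families, the EDG-like receptors (Lpar1, Lpar2 and Lpar3) and the P2Y-like receptors (among them Lpar4 and Lpar6), and is inactivated at the cell surface by the lipid phosphate phosphatases.

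Enpp2 lies on the minus strand of chromosome 15 (chr15:54838901-54952892, GRCm38) and was counted on 4 transcripts. Its transcripts Enpp2-203 and Enpp2-202, each of 26 exons, are the same sequence apart from 1 coding exon in each, and these exons are printed because they are the only part of the message by which the counts of these 2 transcripts can differ. The exon of Enpp2-203 is exon 12, with 156 bases or 52 codons (chr15:54877776-54877931, minus strand). The exon of Enpp2-202 is exon 20, with 75 bases or 25 codons (chr15:54851348-54851422, minus strand). Capitals mark the exon and lower case the 12 neighbouring bases of the spliced message on each side, 5′ to 3′, from the GENCODE transcripts of that build.
Enpp2-203 exon 12: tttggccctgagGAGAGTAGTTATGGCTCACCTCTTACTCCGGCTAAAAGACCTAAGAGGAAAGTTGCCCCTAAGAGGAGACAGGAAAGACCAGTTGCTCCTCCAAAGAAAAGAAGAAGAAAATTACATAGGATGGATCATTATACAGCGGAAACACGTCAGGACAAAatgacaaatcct
Enpp2-202 exon 20: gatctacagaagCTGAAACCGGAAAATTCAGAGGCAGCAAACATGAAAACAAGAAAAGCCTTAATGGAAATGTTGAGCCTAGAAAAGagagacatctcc

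The other genes are spread over the genome (GRCm38). The EDG-like receptor genes are Lpar1 (chr4:58435255-58553898, minus strand), Lpar2 (chr8:69822429-69831102, plus strand) and Lpar3 (chr3:146220963-146286186, plus strand). The P2Y-like receptor genes are Lpar4 (chrX:106920625-106933900, plus strand) and the single-exon Lpar6 (chr14:73237895-73243294, plus strand), which lies within Rb1 and shares 408 exon bases with it on the opposite strand. The phosphatase genes are Plpp1 (chr13:112800792-112867894, plus strand), Plpp2 (chr10:79526430-79533796, minus strand) and Plpp3 (chr4:105157347-105232764, plus strand). Plpp1 shares 452 exon bases with Mtrex on the opposite strand. The strand setting of the counting is not stated, so reads of Lpar6 and Plpp1 cannot be fully told apart from those of their partners.

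Before the members, the samples themselves need 3 remarks. The conditional libraries were each sequenced in 2 runs, and the files of the runs were joined by the library number in the sample description, because the recorded attachment of 14 of the 16 files names another library. Joined by number, the 2 runs of a pool differed by no more than sampling noise (chi-square over degrees of freedom 1.0 to 1.034), against 12.531 to 19.453 for the runs that the record puts together. Under the record, pools A and B of a group would differ by only 1.013 to 1.026, that is, they would be runs of the same libraries. Otx2, the targeted gene, was counted higher over its whole transcript in the pools labelled Cre-Tat and Otx2 (+/-). It was 385.3 and 469.4 CPM (a read count scaled to the total of its pool) in the pools labelled vehicle LV against 1235 and 1024 CPM in those labelled Cre-Tat LV, 385.4 and 392.9 against 1202 and 1222 CPM in 4V, and 361.2 and 303.1 CPM in WT against 1027 and 885.3 CPM in Otx2 (+/-). These rises passed the test (log2 fold changes of 1.41, 1.64 and 1.53, edgeR adjusted p = 0.000507, 1.15e-06 and 0.0011), whereas Otx2 (+/AA) was at 338.9 and 356.4 CPM. In the conditional model, the count does not separate RNA of a recombined allele from intact RNA. The Otx2 (+/-) mice received no Cre-Tat, and the higher Otx2 count in their pools was not examined further. Reads by exon were not analysed here, and the methods describe a qPCR check of Otx2 in the conditional tissue before pooling. Every direction below therefore holds for the pools as labelled. Markers of the ChP epithelium (8 of 8 listed genes) were present in every pool, summing to 65360 to 193000 CPM. Model, run and strain cannot be told apart, and nothing states that the 2 pools of a group were dissected independently. LV and 4V were taken from the same injected mice, so the pools of the 2 ventricles are not independent, but no source says that a letter marks the same mice in both.

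Levels are given as CPM, in which the reads counted on 1 transcript per gene are divided by the total so counted in the pool, scaled over the 14 pools by trimmed means (TMM). Per kilobase of transcript, Enpp2 stood far above its receptors and the phosphatases in every group. Its length-scaled level was 15620 ± 332 CPM per kilobase (SD, n = 2) in WT, and Enpp2 alone took between 2.191 and 4.365% of the counts of a pool. By mean CPM over the 14 pools, Enpp2 ranked 4th among all genes. The phosphatases Plpp1 and Plpp3 came next, with group means of 35.62 to 56.13 and 16.96 to 40.9 CPM per kilobase. Plpp2, Lpar1 and Lpar6 lay between 2.008 and 5.194 CPM per kilobase in all group means, and Lpar4 between 0.6296 and 3.373. Lpar2 and Lpar3 were close to the limit of these libraries, at 0.07168 to 0.2573 and 0.044 to 0.1757 CPM per kilobase. Lpar3 had 65 counts over all files and entered no test.

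**Figure D1:**
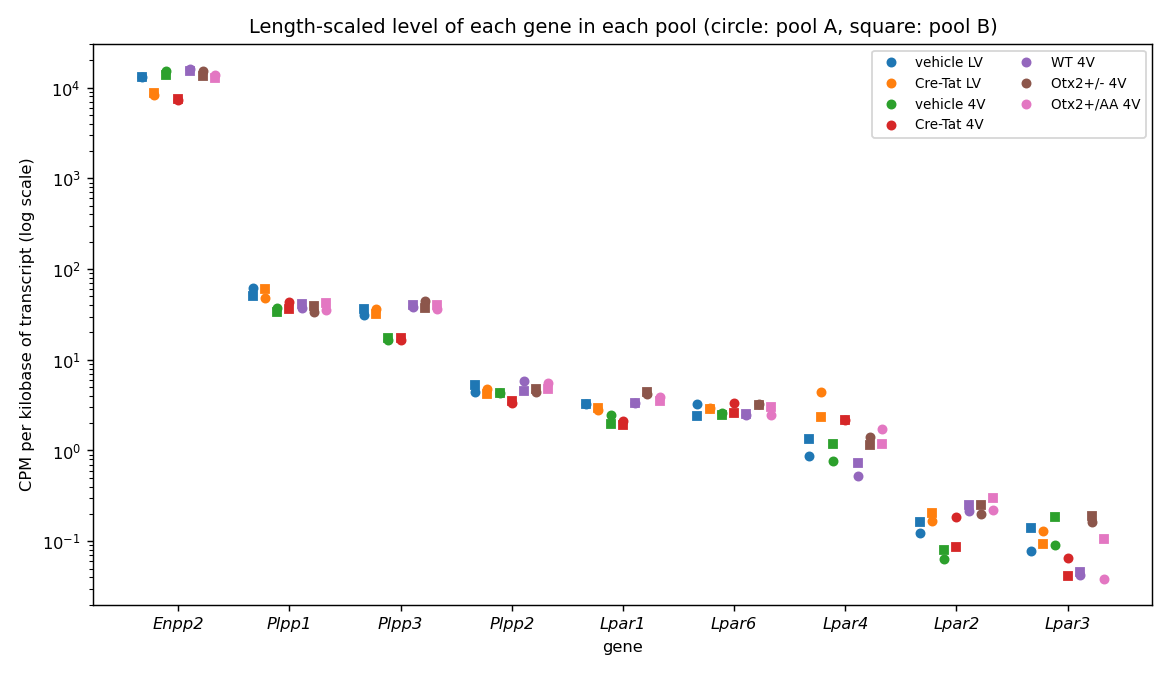
Length-scaled level (CPM per kilobase of transcript, log scale) of the 9 genes in each of the 14 pools, coloured by group. Enpp2 is at or above 7428 CPM per kilobase in every group mean while Lpar2 and Lpar3 are at or below 0.2573, and the points of Plpp3 split by ventricle and run.

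The first question was how the system responded to Cre-Tat. In both ventricles Enpp2 was lower and the receptor gene Lpar4 higher in the pools labelled Cre-Tat, and no other member passed the test. That made 2 of 8 members tested in LV, where 3.24% of 15002 genes were called (2.21% higher and 1.03% lower), and 2 of 7 in 4V, where 10.7% of 14550 genes were called (5.7% higher and 4.98% lower; edgeR quasi-likelihood test, Benjamini-Hochberg adjusted p under 0.05). Lpar3 was not tested in either ventricle and Lpar2 not in 4V. The median log2 fold change of the members was -0.011 in LV and 0.014 in 4V, near that of all genes tested (0.00442 and 0.00609). Where groups are said below not to overlap, this is a description only. Separation of 2 against 2 pools is common without any difference (exact permutation test, p = 0.333).

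Enpp2 in LV was 35890 and 36110 CPM in the vehicle pools and 22710 and 23860 CPM in the Cre-Tat pools. The groups did not overlap, and the 2 pools of each were close to each other. By the fit it fell by 35.2% (log2 fold change -0.63 ± 0.161 SE, 95% confidence interval -0.97 to -0.28, edgeR adjusted p = 0.0496). This call stands at the threshold: it was lost without either vehicle pool (adjusted p = 0.243 without A and 0.185 without B), with libraries scaled by total counts alone (0.0683) and when pool letters were blocked (0.0535), while its log2 fold change ranged from -0.65 to -0.46.

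In 4V, Enpp2 was 42320 and 37750 CPM in the vehicle pools and 20080 and 20700 CPM in the Cre-Tat pools. Again the groups were separate, and the vehicle pools were further apart than the Cre-Tat pools. By the fit it fell by 48.9% (log2 fold change -0.97 ± 0.239 SE, 95% confidence interval -1.47 to -0.47, edgeR adjusted p = 0.013). Without vehicle pool A the log2 fold change was -0.87 and the call was lost (adjusted p = 0.127).

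Some of the epithelial markers moved with Enpp2. Of the 8 markers, 3 fell in LV (Kcnj13, Kcne2 and Aqp1, 2 potassium channel genes and the aquaporin 1 gene) and 7 fell in 4V, among them Ttr, which encodes the thyroxine carrier transthyretin. Of all genes, 1.03% were lower in LV and 4.98% in 4V. Cldn2 was called in neither ventricle and lay higher in the Cre-Tat pools. It was 707.4 and 726.4 CPM in vehicle LV against 751.6 and 829.9 CPM in Cre-Tat LV, and 550.7 and 481.9 against 641.2 and 685.9 CPM in 4V. Without Ttr, the other 7 markers summed to 7142 and 7649 CPM in the vehicle LV pools against 5175 and 5382 CPM in Cre-Tat LV, and to 6856 and 6665 against 3979 and 4270 CPM in 4V. In bulk tissue, fewer cells of a type and less RNA per cell cannot be told apart, and the part of the epithelial share in the Enpp2 result was not tested.

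Lpar4, whose receptor couples to several G proteins including G12/13 and Gs, moved the other way. In LV it was 3.676 and 5.667 CPM in the vehicle pools and 18.54 and 10.04 CPM in the Cre-Tat pools. Both Cre-Tat pools were above both vehicle pools, but pool A was far above pool B. The fitted fold was 3.074 (log2 fold change 1.62 ± 0.289 SE, 95% confidence interval 1.00 to 2.24, edgeR adjusted p = 0.00701). Without Cre-Tat pool A the log2 fold change was 1.12 and the call was lost (adjusted p = 0.0552).

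Lpar4 in 4V was 3.258 and 4.982 CPM in the vehicle pools against 9.17 and 9.113 CPM in the Cre-Tat pools, a fold of 2.25 (log2 fold change 1.17 ± 0.241 SE, 95% confidence interval 0.66 to 1.68, edgeR adjusted p = 0.00374). The groups did not overlap, and the call held without each pool in turn (largest adjusted p = 0.04997). Of all genes, 2.21% were higher with Cre-Tat in LV and 5.7% in 4V. Macrophage markers were higher in the Cre-Tat pools: 2 of 6 rose in LV (Ptprc and C1qa) and 5 of 6 in 4V (Ptprc, Aif1, C1qa, Mrc1 and Csf1r). Their summed level was 54.0 to 61.35 CPM in vehicle LV against 90.56 to 100.2 CPM in Cre-Tat LV, and 39.03 to 40.06 against 65.36 to 85.35 CPM in 4V, with none of the 6 at 0. Astrocyte markers also rose (2 of 4 in LV, 3 of 4 in 4V), from sums of 44.3 to 68.31 up to 85.45 to 107.9 CPM in LV and from 27.13 to 45.02 up to 66.3 to 71.6 CPM in 4V. The ependymal marker Foxj1 rose in both ventricles (1 of 2 tested). Ependymal sums were 78.44 to 86.7 against 132.5 to 151.0 CPM in LV and 85.72 to 103.3 against 180.4 to 189.7 CPM in 4V. Nearly all of each sum was Foxj1 itself (179.3 and 188.9 CPM in Cre-Tat 4V). Ccdc153 overlapped between vehicle and Cre-Tat pools in both ventricles, and Tmem212 was at or below 0.4774 CPM in every pool. Of the fibroblast markers Col1a2 rose and Pdgfra fell in both ventricles, while the neuronal marker Snap25 rose in LV, Syt1 fell in 4V and the endothelial marker Plvap rose in 4V. The part of any of these cell types in the Lpar4 result was not tested.

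**Figure D2:**
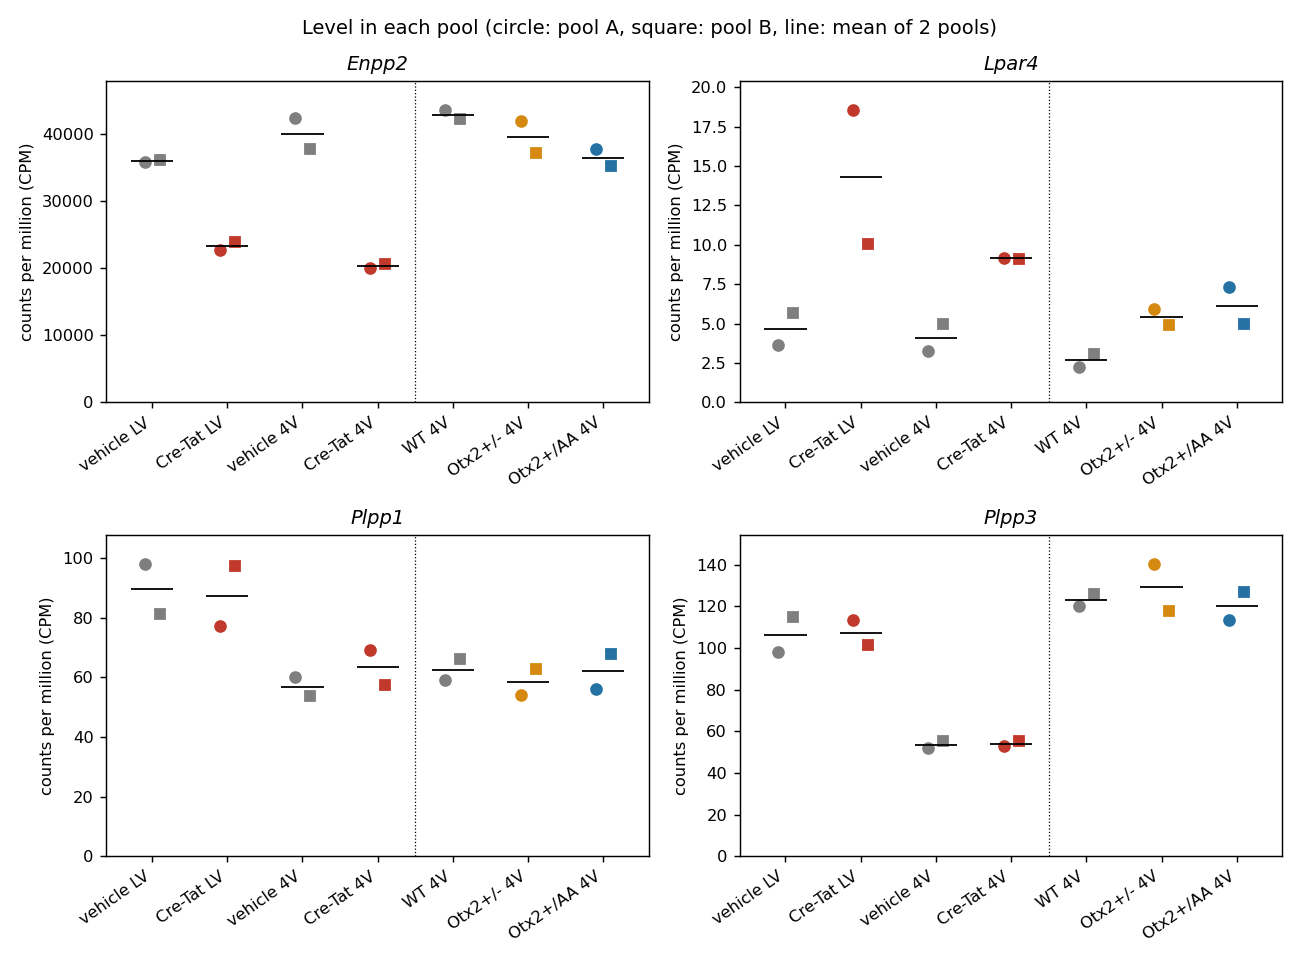
Level (CPM) of Enpp2, Lpar4, Plpp1 and Plpp3 in pool A (circle) and pool B (square) of each group, with the group mean as a line, the conditional groups to the left of the dotted line and the constitutive groups to its right. Both Cre-Tat groups lie at or below 23860 CPM for Enpp2 and every other pool at or above 35170 CPM, while Plpp3 separates LV from 4V in the conditional groups and overlaps between vehicle and Cre-Tat pools.

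The remaining receptors and the phosphatases passed no test for Cre-Tat. Lpar1, the EDG-like receptor gene with the most reads, was 11.65 and 11.58 CPM in vehicle LV and 9.954 and 10.41 CPM in Cre-Tat LV (log2 fold change -0.19, 95% confidence interval -0.58 to 0.21). In 4V it was 8.812 and 7.012 CPM against 7.488 and 6.747 CPM (-0.16, interval -0.61 to 0.30). The LV groups were apart and the 4V groups overlapped, and neither difference exceeded the fitted spread. Lpar6, at 12.88 to 18.23 CPM over all 14 pools, overlapped between groups in both ventricles (intervals -0.37 to 0.45 in LV and -0.15 to 0.62 in 4V). Lpar2 was 0.7161 and 0.9445 CPM in vehicle LV against 0.9633 and 1.192 CPM in Cre-Tat LV, and its interval of -0.72 to 1.47 leaves folds in both directions undetectable at this depth. In 4V Lpar2 was 0.3702 and 0.4613 CPM against 1.085 and 0.5035 CPM, counts too low for the test.

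Plpp3, the phosphatase gene with the most reads, was at nearly the same level with and without Cre-Tat. It was 98.2 and 114.7 CPM in vehicle LV against 113.3 and 101.3 CPM in Cre-Tat LV (log2 fold change 0.01, 95% confidence interval -0.33 to 0.36), and 51.76 and 55.45 against 52.74 and 55.13 CPM in 4V (0.01, interval -0.26 to 0.29). Neither interval reaches a log2 fold change of 1 in either direction, and both leave room for smaller shifts. For Plpp1 they were -0.41 to 0.34 in LV and -0.14 to 0.46 in 4V. Plpp2 was lower in both Cre-Tat 4V pools (5.48 and 5.74 CPM) than in the vehicle pools (7.183 and 7.197 CPM), but the difference of -0.35 did not pass the test (interval -0.82 to 0.11, edgeR adjusted p = 0.383).

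Whether the response to Cre-Tat differed between ventricles was tested as an interaction. None of the 8 members tested was called, where 0.00642% of 15565 genes were called. At an unadjusted p under 0.05 there were 0 members and 416 of the 15565 genes, and DESeq2 called 0 members. The fall of Enpp2 was smaller in LV by 0.35 on the log2 scale (95% confidence interval -0.15 to 0.84) and the rise of Lpar4 larger by 0.45 (interval -0.46 to 1.37), so differences of either sign remain possible.

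The counts of Enpp2-203 and Enpp2-202 can be set against the exons printed above. If each read was counted on every transcript it overlapped, which the sources used here do not state, the excess of Enpp2-203 over Enpp2-202 is the reads of exon 12 less those of exon 20. Exon 12 is the longer exon (156 against 75 bases), so the sign of the excess does not show which exon was included more often. The excess was positive in every pool, between 48870 and 120340 counts. As a share of the Enpp2-203 counts it was 13.1% ± 0.262 (SD, n = 2) in vehicle LV, 13.3% ± 0.509 in Cre-Tat LV, 13.4% ± 0.262 in vehicle 4V and 13.2% ± 0.021 in Cre-Tat 4V. These ranges overlapped between vehicle and Cre-Tat in LV. In 4V the Cre-Tat range lay within that of vehicle (lowest and highest pool 13.18 and 13.55% in vehicle, 13.18 and 13.21% in Cre-Tat). The share was 14.4% ± 0.714 in WT, 14.1% ± 0.559 in Otx2 (+/-) and 13.97% ± 1.25 in Otx2 (+/AA). All 4 transcripts were lower in Cre-Tat pools by like amounts, with log2 ratios of the group means of -0.63 in LV and -0.97 in 4V for each of Enpp2-201, Enpp2-202, Enpp2-203 and Enpp2-204. Since the transcripts share most of their reads, these are not independent values.

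**Figure D3:**
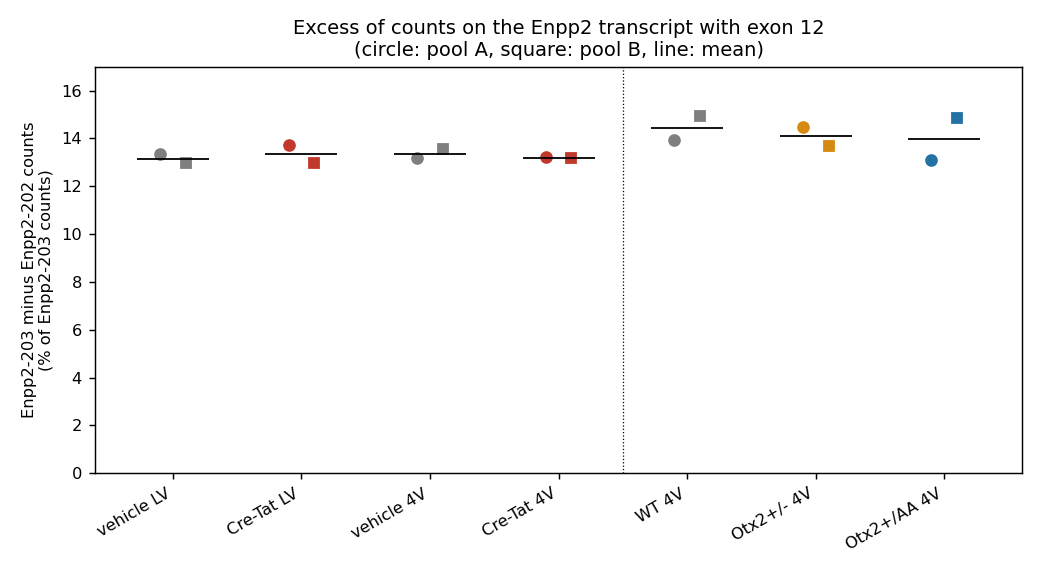
Excess of Enpp2-203 over Enpp2-202 counts, as a percent of the Enpp2-203 counts, in pool A (circle) and pool B (square) of each group with the mean as a line. All 14 pools lie between 12.96 and 14.93%, and vehicle and Cre-Tat groups share their range.

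The constitutive model asked the same question of mice labelled Otx2 (+/-) in 4V. No member of 8 tested passed, where 3.53% of 14573 genes were called. At an unadjusted p under 0.05 there were 3 members and 2700 of the 14573 genes, and with DESeq2 0 members were called. Enpp2 was 43540 and 42260 CPM in WT and 41930 and 37100 CPM in Otx2 (+/-). The Otx2 (+/-) pools were lower but widely spaced (log2 fold change -0.12, 95% confidence interval -0.46 to 0.23, edgeR adjusted p = 0.744). Of the epithelial markers, 2 of 8 fell here (Ttr and Folr1), and the 7 without Ttr summed to 7252 and 6812 CPM in WT and 6437 and 5934 CPM in Otx2 (+/-).

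The 3 members at an unadjusted p under 0.05 were receptors. Lpar4 was 2.244 and 3.092 CPM in WT against 5.903 and 4.93 CPM in Otx2 (+/-), a difference of 1.03 on the log2 scale (95% confidence interval 0.44 to 1.61, edgeR adjusted p = 0.0716). The groups did not overlap, and the call depended on the fit: Lpar4 passed without WT pool B (adjusted p = 0.00728) and with pool letters blocked (0.00152). Lpar1 was 11.79 and 11.81 CPM against 14.83 and 15.82 CPM (log2 fold change 0.38, edgeR adjusted p = 0.217) and Lpar6 was 13.31 and 13.72 CPM against 17.46 and 17.1 CPM (0.36, edgeR adjusted p = 0.232). Both had groups that did not overlap and neither passed. The share of all genes whose groups did not overlap was not computed, and such separation is common (exact permutation test, p = 0.333). Of all genes, 3.53% were called in this comparison, in either direction. Beside these receptors, 1 of 6 macrophage markers rose (Mrc1, sums of 73.66 to 75.66 CPM in WT and 77.85 to 80.11 CPM in Otx2 (+/-)). The macrophage markers did not move together, with a median of 0.04 on the log2 scale. C1qa (29.95 and 25.08 against 20.84 and 21.67 CPM) and Cd68 were lower in both Otx2 (+/-) pools without being called, and Aif1 and Csf1r overlapped. Among astrocyte markers 2 of 4 rose (Aqp4 and Slc1a3, sums of 42.06 to 45.43 against 83.0 to 130.4 CPM). Among fibroblast markers 2 of 6 rose (Col1a2 and Col3a1, sums of 725.4 to 798.4 against 1004 to 1107 CPM). Their part in the receptor differences was not tested. The phosphatases were within -0.18 to 0.07 on the log2 scale.

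Otx2 (+/AA) against WT gave no call among 8 members either, where 0.345% of 14494 genes were called. An unadjusted p under 0.05 was reached by 1292 of the 14494 genes and by 1 member. That member was again Lpar4, at 7.31 and 4.952 CPM in Otx2 (+/AA), above both WT pools (log2 fold change 1.20, 95% confidence interval 0.59 to 1.81, edgeR adjusted p = 0.106). It passed without WT pool B (adjusted p = 0.00284), with no filter on low counts (0.000937) and with the block (0.000696). This comparison uses the same WT pools as the one before, so the 2 results for Lpar4 are not independent. Enpp2 was 37730 and 35170 CPM in Otx2 (+/AA), below both WT pools, without passing (log2 fold change -0.24, interval -0.51 to 0.02, edgeR adjusted p = 0.625). Between Otx2 (+/-) and Otx2 (+/AA), no member of 8 passed where 2.7% of 14578 genes were called. An unadjusted p under 0.05 was reached by 2092 of these genes and by no member. DESeq2 called no member in either of these comparisons.

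The responses of the conditional and constitutive models in 4V were compared with each other as an interaction, in which model, run and strain cannot be told apart. No member of 8 passed where 1.64% of 15327 genes were called. An unadjusted p under 0.05 was reached by 1987 of the 15327 genes and by 2 members. Enpp2 fell by 0.87 more on the log2 scale under Cre-Tat than in Otx2 (+/-) (95% confidence interval -1.38 to -0.35, edgeR adjusted p = 0.105). This difference was called by DESeq2 (adjusted p = 0.000106), without a filter (0.000167), with the block (0.0133) and with counts summed over transcripts (0.0358), so the call turned on the fit. For Lpar1 the difference was -0.55 (interval -1.08 to -0.02, edgeR adjusted p = 0.366), and for Lpar4 it was 0.13 (interval -0.66 to 0.91).

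**Figure D4:**
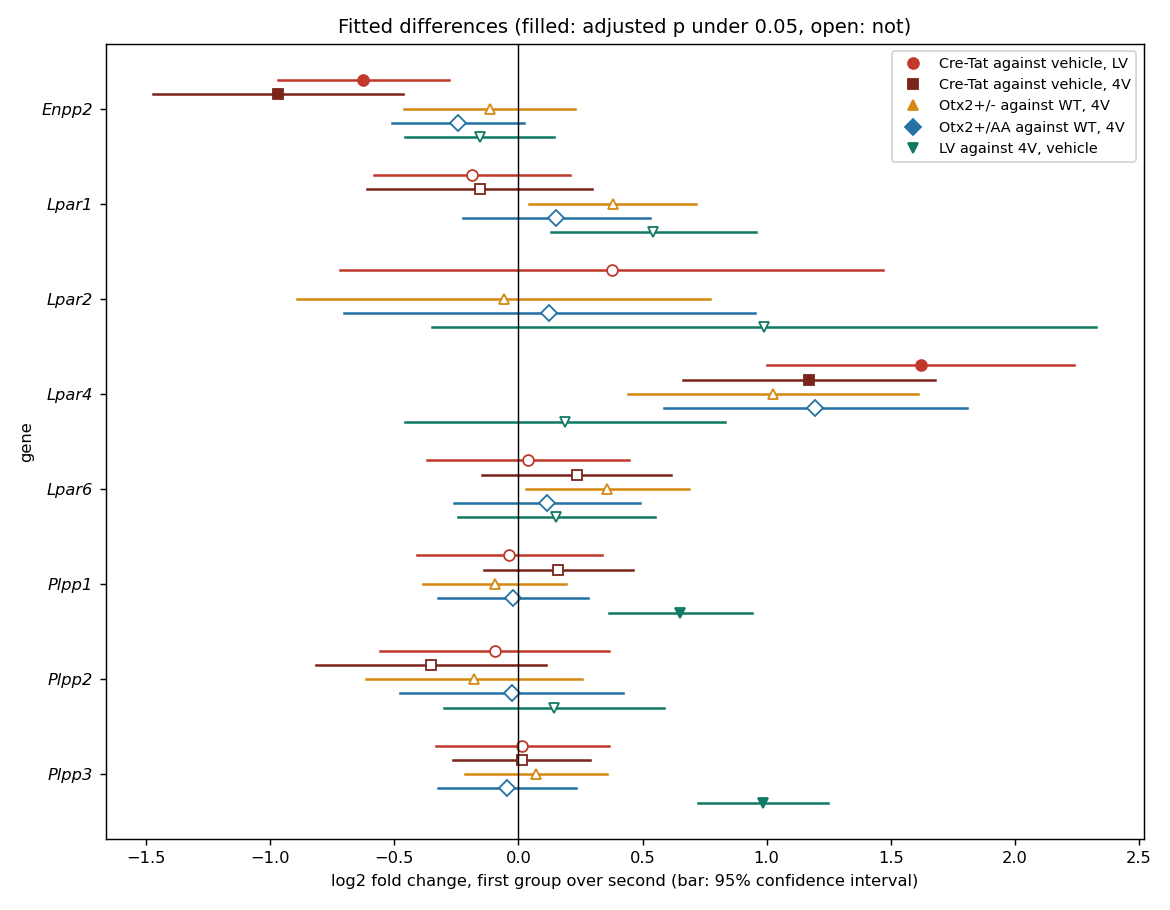
Fitted log2 fold change with its 95% confidence interval for the 8 tested genes in 5 comparisons, filled where the adjusted p is under 0.05. Enpp2 is filled on the left and Lpar4 on the right for both Cre-Tat comparisons, Plpp1 and Plpp3 are filled for LV against 4V, and every other marker is open.

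Between the ventricles, the calls fell on phosphatase genes. Among vehicle pools, Plpp3 and Plpp1 were higher in LV than in 4V, 2 of 8 members tested, where 7.44% of 14561 genes were called (3.46% higher in LV). Plpp3 was 98.2 and 114.7 CPM in LV and 51.76 and 55.45 CPM in 4V, with no overlap and a fold of 1.98 (log2 fold change 0.99 ± 0.122 SE, 95% confidence interval 0.72 to 1.25, edgeR adjusted p = 0.000271). The Plpp3 call held under all alternatives run on the files joined by library number (largest adjusted p = 0.00499). Plpp1 was 98.06 and 81.33 CPM in LV and 60.13 and 53.7 CPM in 4V (log2 fold change 0.65 ± 0.134 SE, interval 0.36 to 0.94, edgeR adjusted p = 0.00965). Its call was lost without vehicle 4V pool B (0.57, adjusted p = 0.119) and with total counts alone (0.47, adjusted p = 0.0589).

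Enpp2 did not pass between the ventricles (log2 fold change -0.16, 95% confidence interval -0.46 to 0.14), although with total counts alone it was lower in LV (-0.35, adjusted p = 0.0194). Lpar1 was 11.65 and 11.58 CPM in LV and 8.812 and 7.012 CPM in 4V, apart but not called (0.54, interval 0.13 to 0.96, edgeR adjusted p = 0.105); the block called it (adjusted p = 0.0432) and raised the genes called from 1083 to 2288. Of all genes, 3.46% were called higher in LV. Endothelial markers were higher in LV, with 2 of 6 called (Plvap and Pecam1) and sums of 170.2 to 196.8 CPM against 113.4 to 126.5 CPM in 4V. Markers of other types were also called higher in LV: 2 of 4 for astrocytes (Slc1a2 and Slc1a3, sums of 44.3 to 68.31 against 27.13 to 45.02 CPM), 1 of 6 for macrophages (Csf1r, 54.0 to 61.35 against 39.03 to 40.06 CPM), 1 of 6 for fibroblasts (Dcn, 588.7 to 624.6 against 495.3 to 516.7 CPM), 1 of 3 for oligodendrocytes (Mobp, 28.93 to 52.74 against 24.08 to 28.95 CPM) and 1 of 8 for the epithelium (Cldn2). The part of these cell types in the Plpp1 and Plpp3 results was not tested. In the constitutive run, whose tissue is also 4V, Plpp3 was 120.4 and 125.8 CPM in WT, above the vehicle 4V pools. That gap lies across runs and strains and was not tested. The endothelial sum in WT was 294.7 to 321.6 CPM, also above vehicle 4V. So were the sums for mural cells (477.5 to 493.7 against 195.5 to 217.7 CPM), fibroblasts (725.4 to 798.4 against 495.3 to 516.7 CPM) and macrophages (73.66 to 75.66 against 39.03 to 40.06 CPM). Oligodendrocyte and ependymal sums were higher in WT as well, and those of the remaining cell types overlapped. The ependymal sum was nearly all Foxj1 (163.8 and 182.7 CPM in WT, 101.4 and 85.26 CPM in vehicle 4V), and Ccdc153 overlapped.

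The order of the 7 groups for Enpp2 was WT (42900 ± 905 CPM, SD, n = 2), vehicle 4V (40040 ± 3230), Otx2 (+/-) (39520 ± 3420), Otx2 (+/AA) (36450 ± 1810), vehicle LV (36000 ± 156), Cre-Tat LV (23280 ± 813) and Cre-Tat 4V (20390 ± 438). Neighbours among the highest 5 groups overlapped in their pools, and the step down to Cre-Tat LV and that to Cre-Tat 4V did not. For Lpar4 the order was Cre-Tat LV (14.29 ± 6.01 CPM), Cre-Tat 4V (9.142 ± 0.0403), Otx2 (+/AA) (6.131 ± 1.67), Otx2 (+/-) (5.416 ± 0.688), vehicle LV (4.672 ± 1.41), vehicle 4V (4.12 ± 1.22) and WT (2.668 ± 0.6). Here Cre-Tat LV lay above Cre-Tat 4V, which lay above Otx2 (+/AA), and WT lay below vehicle 4V, while the neighbours between overlapped.

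Genes with the pattern most like a member were found by Pearson's r of log2 CPM over the 14 pools among 13438 other genes, as a description. For Enpp2 they were Slc31a1, a copper transporter gene (r = 0.975), Vkorc1l1, a vitamin K epoxide reductase gene (0.959), and Spag4 (0.958). For Lpar4 they were Veph1 (0.924), Cybb, which encodes a subunit of the phagocyte NADPH oxidase (0.923), and Rnf144b (0.902). For Plpp3 they were Igfbp4, an IGF binding protein gene (0.978), Alpl, an alkaline phosphatase gene (0.957), and Spry1, an inhibitor of receptor tyrosine kinase signalling (0.954). Plpp1 was most like Ndufc2 (0.906), Orai3 (0.906) and Dsc2 (0.902), and Plpp2 most like Sec62 (0.884), M6pr (0.881) and Lmod1 (0.874). Lpar1 was most like Aldoc (0.958), Mettl7a1 (0.953) and Erg (0.94), Lpar2 most like Ssu72 (0.96), Ube2l6 (0.952) and Rgs10 (0.942), and Lpar6 reached lower values with F13a1 (0.766), Gm11681 (0.762) and Atp1b3 (0.727). All points share the pools' group, run and strain differences.

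Of 13 LPA supply genes, 2 of 12 tested rose with Cre-Tat in LV, where 2.21% of all genes were higher. In 4V, 1 of 10 rose and 1 fell, where 10.7% of all genes were called. The gene called in both was Lcat, whose enzyme esterifies cholesterol and leaves lysophosphatidylcholine, the substrate of autotaxin. Lcat was 3.724 and 3.878 CPM in vehicle LV and 11.2 and 13.71 CPM in Cre-Tat LV (log2 fold change 1.71, edgeR adjusted p = 0.000581), and 8.516 and 7.105 against 26.91 and 25.48 CPM in 4V (1.74, edgeR adjusted p = 3.86e-06). It was also lower in vehicle LV than in vehicle 4V (-1.05, edgeR adjusted p = 0.016; 0.111 without vehicle 4V pool A and 0.059 with summed transcripts), and its response was larger under Cre-Tat than in Otx2 (+/-) by 1.18 (edgeR adjusted p = 0.0276). The latter call was lost without any 1 of the pools except Otx2 (+/-) pool B (largest adjusted p = 0.151, without vehicle 4V pool B) and with summed transcripts (0.0825). Gdpd3, a glycerophosphodiesterase gene, rose in LV (1.07, edgeR adjusted p = 0.0417), a call lost without each of the 4 pools in turn (largest adjusted p = 0.198), with DESeq2 (0.0785) and with summed transcripts (0.111). Gde1, another glycerophosphodiesterase gene, fell in Cre-Tat 4V (-0.74, edgeR adjusted p = 0.00291) and in Otx2 (+/-) (-0.54, edgeR adjusted p = 0.0403), the latter call being lost without Otx2 (+/-) pool A, WT pool A or WT pool B (adjusted p = 0.103, 0.114 and 0.0633), with total counts (0.0539) and with summed transcripts (0.0583). The median of the supply genes was -0.10 in LV and -0.01 in 4V.

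Of 15 LPA removal genes tested, none was called in LV and 2 fell in 4V, where 4.98% of all genes were lower. They were the acyltransferase genes Lpcat2 (-0.70, edgeR adjusted p = 0.00561) and Agpat5 (-0.51, edgeR adjusted p = 0.0179), with list medians of -0.24 and -0.20. Both calls were lost without vehicle 4V pool A (adjusted p = 0.0828 and 0.151), and that of Agpat5 also without vehicle 4V pool B (0.0789) or Cre-Tat pool A (0.064) and with total counts (0.128). Among the membrane proteins related to the phosphatases, Plppr4 fell with Cre-Tat from 521.3 and 582.3 to 310.0 and 269.6 CPM in LV (-0.93, edgeR adjusted p = 0.00689) and from 363.7 and 367.0 to 190.7 and 202.2 CPM in 4V (-0.89, edgeR adjusted p = 0.00028), 1 of 3 genes tested in each. The LV call was lost without vehicle LV pool B. Of all genes, 1.03% were lower in LV and 4.98% in 4V. Plppr4 was also higher in vehicle LV than 4V (0.59, edgeR adjusted p = 0.00867; 0.0536 without vehicle 4V pool B and 0.0529 with total counts). Sgpp2, an intracellular phosphatase gene for the related lipid sphingosine 1-phosphate (S1P), fell in LV (-1.69, edgeR adjusted p = 0.00762) and 4V (-1.17, edgeR adjusted p = 0.000323), 1 of 6 S1P turnover genes in each, beside the same shares of all genes. It was also lower in vehicle LV than 4V (-1.73, edgeR adjusted p = 8.04e-05) and lower in Otx2 (+/-) than Otx2 (+/AA) (-0.87, edgeR adjusted p = 0.0175; 0.058 with summed transcripts).

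Of the receptors for related lipids, 5 were tested with Cre-Tat in each ventricle. None was called in LV and 2 rose in 4V, where 5.7% of all genes were higher. P2ry10, a receptor gene of immune cells, had 0 counts in both vehicle 4V pools and 26 and 16 counts in the Cre-Tat pools, at least 8.99-fold higher against a floor of 3 counts over the vehicle group (edgeR adjusted p = 0.0023). Gpr34, a lysophosphatidylserine receptor gene of microglia and macrophages, was 1.185 and 1.107 CPM against 3.852 and 2.165 CPM (1.38, edgeR adjusted p = 0.0343). The Gpr34 call was lost without Cre-Tat pool A (0.347), vehicle pool A (0.0775) or vehicle pool B (0.0756) and with DESeq2 (0.11). S1pr3, an S1P receptor gene, was higher in vehicle LV than 4V (0.78, edgeR adjusted p = 0.02), a call lost without vehicle 4V pool A (0.103) or B (0.0741), with DESeq2 (0.0538), total counts (0.07) and summed transcripts (0.0556).

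Of 17 genes of LPA signal transduction tested with Cre-Tat, none was called in LV and 2 rose in 4V, where 5.7% of all genes were higher. They were Srf (0.52, edgeR adjusted p = 0.0425), a transcription factor gene, and the G protein gene Gna13 (0.51, edgeR adjusted p = 0.0248). Gna13 was lost without vehicle 4V pool A (0.402) and in the fit of all groups of the run (0.135). Srf was lost without either vehicle pool (0.139 without A and 0.189 without B) or Cre-Tat pool B (0.22), with DESeq2 (0.108), all groups of the run (0.0678) and summed transcripts (0.106). The G protein genes Gnai1 (0.70, edgeR adjusted p = 0.00992) and Gna12 (0.53, edgeR adjusted p = 0.0216) were higher in vehicle LV than 4V, and both calls were lost without vehicle 4V pool A (0.0908 and 0.104) and with total counts (0.0704 and 0.134), that of Gna12 also without vehicle 4V pool B (0.121) or vehicle LV pool B (0.146) and with summed transcripts (0.0559). None of 6 tested YAP and SRF target genes was called in any comparison. Among the Enpp relatives, Enpp6, a choline phosphodiesterase gene of the oligodendrocyte lineage, was called in the constitutive run alone, at 14.38 and 8.165 CPM in Otx2 (+/-) against 4.174 and 4.779 CPM in WT (1.34, edgeR adjusted p = 0.0375; 0.138 without Otx2 (+/-) pool A and 0.0771 with summed transcripts) and 3.467 and 2.763 CPM in Otx2 (+/AA) (1.86, edgeR adjusted p = 0.00371).

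Promoter sequence was examined for the letters TAATCC, the core of the motif bound by OTX-type homeodomains, on both strands. It was present in 7.06% of 32851 RefSeq promoters (GRCm38.p6, 250 bases before to 50 after the start) and in none of the 9 promoters listed for 7 of the members. Promoters of Enpp2 and Plpp1 were not analysed here. This says only that the letters are not in those windows.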

How the data were processed

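RNA of ChP pools was sequenced as 50-base strand-specific reads, and the authors deposited raw counts of reads per transcript, made per the labels with Bowtie 0.12.9, SAMtools and HTSeq 0.5.3 on mm10. The labels name Ribo-Zero and the study's methods poly(A) selection. Of 95533 transcripts, 82807 were matched to GENCODE. Runs of 1 library were summed, and for each gene the transcript with the highest total was used. Such counts totalled 10558002 to 24833188 per pool (22750019 to 50088408 over all transcripts, which share reads). Pools of the groups compared were fitted with edgeR 4.0.16 (TMM, filterByExpr, quasi-likelihood F-test, Benjamini-Hochberg, threshold 0.05), interactions with the groups they involve. Simulated data were used to test the scripts. An exact permutation test of 2 against 2 pools cannot go below p = 0.333, so p-values come from edgeR. The alternatives were DESeq2 1.42.0, other scalings and filters, pool letters blocked, a fit with all groups of the run, summed transcripts, the recorded file attachment and leaving out each pool. The members and lists were chosen with earlier results of these data known. All members, Otx2, called genes of the pathway lists (at most 4 per list) and the 3 genes most like each member were named.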

Additional observations from a re-analysis of the deposited data

Results flagged for a closer look

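Lpar1 was singled out because its pools separated in opposite directions in different groups. The rule was applied to all 9 members, and the share of all genes that meet it was not computed. Separation of 2 against 2 pools is common without any difference (exact permutation test, p = 0.333). Both Cre-Tat LV pools were below both vehicle LV pools (log2 fold change -0.19), whereas both Otx2 (+/-) pools (0.38) and both Otx2 (+/AA) pools (0.15) were above both WT pools. None of these differences passed the test (edgeR adjusted p = 0.776, 0.217 and 0.89). The difference between these responses, which also lies across ventricle, run and strain, was not tested. In 4V of both models, where it was tested, it did not pass (-0.55, edgeR adjusted p = 0.366).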

How the results depend on the processing

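Apart from the recorded file attachment, 811 values of the members were recomputed: 792 kept their side of the threshold, 8 lost and 11 gained a call, and no called value changed direction. For Otx2 and the named pathway genes, 354 of 410 values kept their side, 56 lost a call and none was reversed. The number of members called moved as follows. With Cre-Tat in LV it was 1 (Lpar4) under total counts or the replicate block, and 1 to 2 leaving out pools (Lpar4 without a vehicle pool, Enpp2 without Cre-Tat pool A). In 4V it was 1 to 2 (1, Lpar4, without vehicle pool A). In Otx2 (+/-) it was 1 (Lpar4) with the block and 0 to 1 leaving out pools (WT pool B). In Otx2 (+/AA) it was 1 (Lpar4) with no filter or the block, and 0 to 1 leaving out pools (WT pool B). Between ventricles it was 1 to 2 leaving out pools (1, Plpp3, without vehicle 4V pool B), 3 with the block (Lpar1 added) and 2 with total counts (Enpp2 in place of Plpp1). For the difference between models it was 1 (Enpp2) with DESeq2, no filter, the block or summed transcripts. The causes were not tested.

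No source says that a pool letter marks the same mice across groups: deviations of same-letter pools correlated between -0.148 (Cre-Tat in LV) and 0.379 (Otx2 (+/-)). The block moved the genes called in 4V with Cre-Tat from 1554 to 3114, in Otx2 (+/-) from 515 to 2539 and in Otx2 (+/AA) from 50 to 549. Letters crossed for Cre-Tat in LV, chosen after seeing the data, called 1012 genes against 486 and 2 members. Over the alternatives on files joined by library number, genes called ranged from 321 to 1012 (Cre-Tat in LV), 905 to 3114 (4V), 395 to 2539 (Otx2 (+/-)), 18 to 549 (Otx2 (+/AA)), 248 to 790 (the 2 genotypes), 400 to 2288 (ventricles), 0 to 31 (ventricle interaction) and 80 to 1048 (models).

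With the files as attached in the record, the 2 pools of a group are runs of the same libraries, so the fit sees run noise only. It called 5 members with Cre-Tat in LV, 6 in 4V, 3 in the ventricle interaction and 3 between models. Log2 fold changes that reversed were, in LV, Lpar1 (0.42), Plpp1 (0.41), Otx2 (-0.013), Lcat (-1.29) and Plppr4 (0.63). In 4V they were Enpp2 (0.16), Lpar1 (0.68), Plpp2 (0.33), Otx2 (-0.29), Srf (-0.16), Gna13 (-0.20), Agpat5 (0.26), Lpcat2 (0.25), Gde1 (0.54), Lcat (-1.07) and Plppr4 (0.69). Between ventricles they were Enpp2 (0.15), Plpp3 (-0.069), Otx2 (-0.11), Sgpp2 (0.21) and Lcat (0.021). In the interactions they were Enpp2 (-0.20) and Otx2 (0.27) for ventricle, and Lpar4 (-0.98), Plpp3 (0.88), Otx2 (-1.83) and Lcat (-1.64) for model. The fit of all groups of a run was not run separately for the ventricle interaction, which already uses all of them. Depth limits Lpar2 and Lpar3 most.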
